A study of Saccharomyces cerevisiae with 6 samples.

Results

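The general stress response of budding yeast was followed through 32 genes in cultures with and without the prion [GAR+]. The genes were taken from a named list of stress genes of the type controlled by the transcription factors Msn2 and Msn4. That list included MSN2 and MSN4 themselves and the repressor gene XBP1. All 32 were found among the 5656 genes that the array's single-gene probe sets stand for, and the probe set of highest mean represented each gene. Trehalose, glycogen and chaperone genes were not members. A prion is a protein-based element that daughter cells inherit without a change in DNA. Cells with [GAR+] can use other carbon sources although a glucose mimic is present, and [gar-] cells lack the element. There were 3 [gar-] and 3 [GAR+] cultures of W303, a common laboratory strain. All were grown in complete synthetic medium with 2% glucose to late exponential phase, at an OD600 of about 0.8, and the labels name no stress treatment for either group. Each culture was grown separately and gave 1 Affymetrix array. The labels do not say whether the [GAR+] cultures came from separate prion isolates.

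Msn2 and Msn4 are zinc finger activators that bind the stress response element, a short motif upstream of many genes. In cells growing on glucose, protein kinase A holds them in the cytoplasm, and on heat, oxidants, osmotic shock or loss of glucose they move to the nucleus and switch on a shared set of genes. The products include antioxidant enzymes, small membrane and cell wall proteins, enzymes of carbon metabolism and regulators of protein turnover. Their transcripts are low in fast growth and climb as glucose runs out.

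Levels below are MAS5 signals, made comparable between the 6 arrays by quantile normalization. Signals of different genes come from different probes and are not compared as amounts of RNA. Differences are [GAR+] minus [gar-] in log2(signal + 16). Because of the added 16, the change of a dim gene is understated. The deposited arrays did not share a scale, with trimmed means between 192 ([GAR+] culture 2) and 500 ([GAR+] culture 1). Per gene, the groups were compared with limma, and a gene passed at a Benjamini-Hochberg adjusted p under 0.05 over all 6504 tested probe sets. Of these, 1 passed (0.0154%), that of the glucose transporter gene HXT3. On each array the highest of 16 control probe sets for non-yeast or antisense sequences read between 12.7 and 27.6.

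Most of the stress genes read slightly lower in [GAR+], and none of the differences passed. The log2 difference was below 0 for 27 of 32 genes, with a median of -0.16, while 48.2% of all tested probe sets lay below 0 and their median was 0.0068. Without normalization between arrays, 15 of 32 genes lay below 0 with a median of 0.013, but there the median of all probe sets was itself 0.16. Relative to the median of all probe sets, 28 of 32 genes were lower both with quantile normalization and without any. In limma 0 of 32 genes passed, against 0.0154% of all probe sets. A lower signal from these bulk cultures cannot tell fewer cells that carry a transcript from less of it per cell. At an unadjusted p under 0.05 the count was also 0 of 32, against 2.98% of all probe sets. Groups did not overlap for 2 genes, XBP1 and SOD2, both lower in [GAR+], which compares with 8.86% of all probe sets in either direction and 4.44% in that direction. For 23 of the 32 genes the 95% confidence interval of the difference lay within 2-fold in either direction on this scale. The same held for 6248 of all 6504 tested probe sets, a larger share. The intervals of GAD1, SPI1, DDR2, SOL4, CTT1, SYM1, PNC1, TFS1 and HSP12 reached beyond 2-fold.

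**Figure D1:**
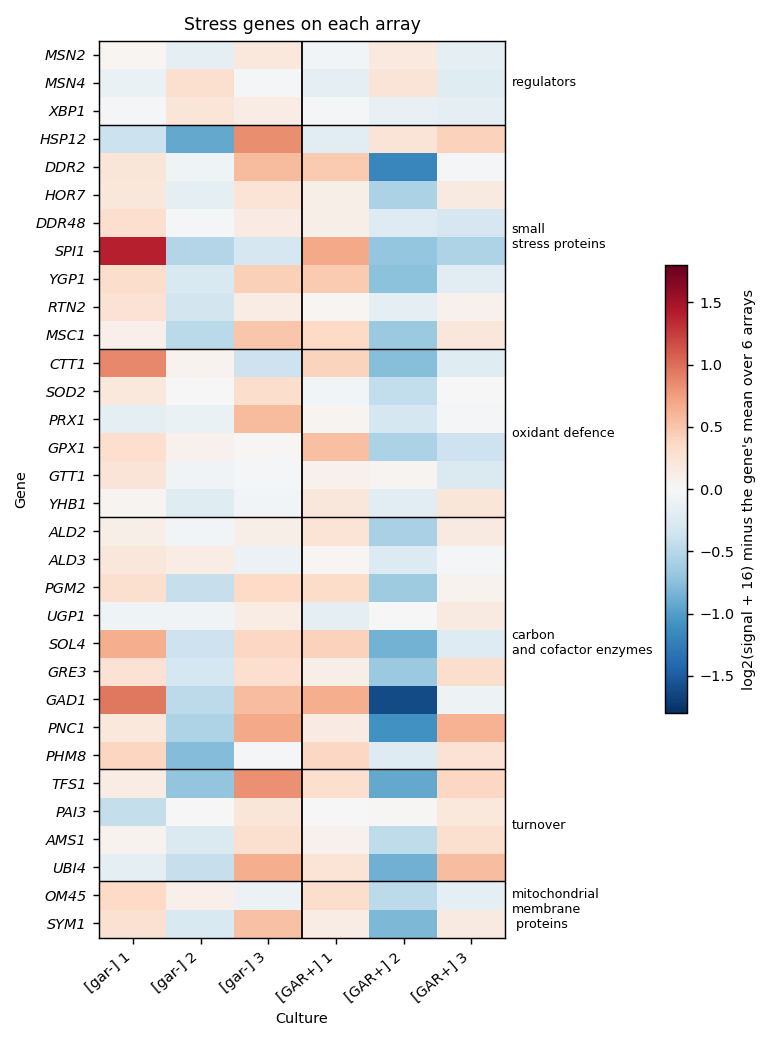
Each cell is the log2(signal + 16) of a gene on an array minus that gene's mean over the 6 arrays, with blue below and red above the mean. Columns are the 6 cultures, and rows are the 32 genes grouped by role. The column of [GAR+] culture 2 holds the lowest value of 21 genes and the highest of 0.

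None of the 3 regulator transcripts passed, and the differences of MSN2 and MSN4 were smaller than their standard errors. MSN2 read 120.2, 103 and 137 in [gar-] cultures 1, 2 and 3 and 113, 134 and 102 in [GAR+] cultures 1, 2 and 3. Its paralogue MSN4 read 78.8, 110.0 and 85.5 in [gar-] and 76.3, 106 and 72.6 in [GAR+]. In both genes the groups overlapped, and the differences were -0.037 with a standard error of 0.17 for MSN2 and -0.10 with 0.19 for MSN4. MSN4 was higher in culture 2 than in cultures 1 and 3 of either group, the opposite of most genes on the list. XBP1 encodes a transcriptional repressor that is itself induced by stress. It read 14.2, 19.5 and 17.6 in [gar-] and 14.1, 11.9 and 11.4 in [GAR+], so the highest [GAR+] value was under the lowest [gar-] one, although the cultures numbered 1 differed by only -0.0061. The difference was -0.22 with a standard error of 0.13 and an unadjusted limma p of 0.138. On 5 of the 6 arrays XBP1 was no brighter than the highest control, so its signal is not clearly above background.

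Among 8 genes of small stress proteins, 7 lay below 0, with a median of -0.24. DDR2, a small protein of unknown biochemical activity induced by DNA damage and other stresses, read 335, 270.5 and 431 in [gar-] and 404, 118 and 281 in [GAR+]. Its value in [GAR+] culture 2 was the lowest of the 6, and [GAR+] culture 1 lay above [gar-] cultures 1 and 2. The difference was -0.48 with a standard error of 0.37, and -0.011 without [GAR+] culture 2. HOR7 is the paralogue of DDR2 and responds to high osmolarity. It read 6492, 5026 and 6722 in [gar-] and 6099.7, 3806 and 6330.0 in [GAR+], with a difference of -0.19 and a standard error of 0.20. The lowest array was again [GAR+] culture 2, but the highest reading was 1.77 times the lowest for HOR7 and 3.65 times for DDR2.

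HSP12 encodes a small heat shock protein that binds membranes and is often used as a reporter of Msn2 and Msn4 activity. It went against most genes on the list, with 1802, 1240.1 and 4228 in [gar-] and 2068, 2778 and 3155 in [GAR+]. The lowest value was that of [gar-] culture 2 and the highest that of [gar-] culture 3, so the [gar-] cultures spanned the whole [GAR+] range. Its difference was 0.31 (standard error 0.37, 95% confidence interval -0.53 to 1.15). At culture numbers 1, 2 and 3 it was 0.20, 1.15 and -0.42, and without both arrays numbered 2 the sign turned, to -0.11.

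DDR48, a stress protein induced by DNA damage, gave 3819 ± 418 (SD, n = 3) in [gar-] and 3139 ± 507 (SD, n = 3) in [GAR+]. Its arrays read 4243, 3407 and 3806 in [gar-] and 3719, 2915 and 2783 in [GAR+], and -0.19, -0.22 and -0.45 were the differences at numbers 1, 2 and 3. All numbers were thus lower in [GAR+], while [GAR+] culture 1 stayed above [gar-] culture 2. With -0.29 and a standard error of 0.14, the unadjusted limma p of 0.0719 was the smallest of the 32 genes. A second DDR48 probe set gave -0.19 and was higher in [GAR+] at number 1.

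SPI1, a cell wall protein anchored by glycosylphosphatidylinositol, was set apart by culture 1. It read 1187, 299 and 352 in [gar-] and 717, 265 and 293 in [GAR+]. Both cultures numbered 1 were well above the other four, and at each number [GAR+] was the lower, with differences of -0.71, -0.16 and -0.25. Without [gar-] culture 1 the group difference turned from -0.38 to 0.23. YGP1, a secreted glycoprotein made when nutrients run short, read 1524, 1004 and 1649.5 in [gar-] and 1696, 726 and 1051 in [GAR+]. It was lower in [GAR+] at numbers 2 and 3 and higher at number 1, with a difference of -0.32 and a standard error of 0.29. RTN2, a reticulon of the endoplasmic reticulum, read 24.6, 10.9 and 21.1 in [gar-] and 18.8, 14.2 and 19.6 in [GAR+] and did not exceed the highest control on 5 arrays. MSC1, named for a role in meiotic sister chromatid recombination, gave a difference of -0.068 and lay between 69.8 ([GAR+] culture 2) and 176 ([gar-] culture 3).

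**Figure D2:**
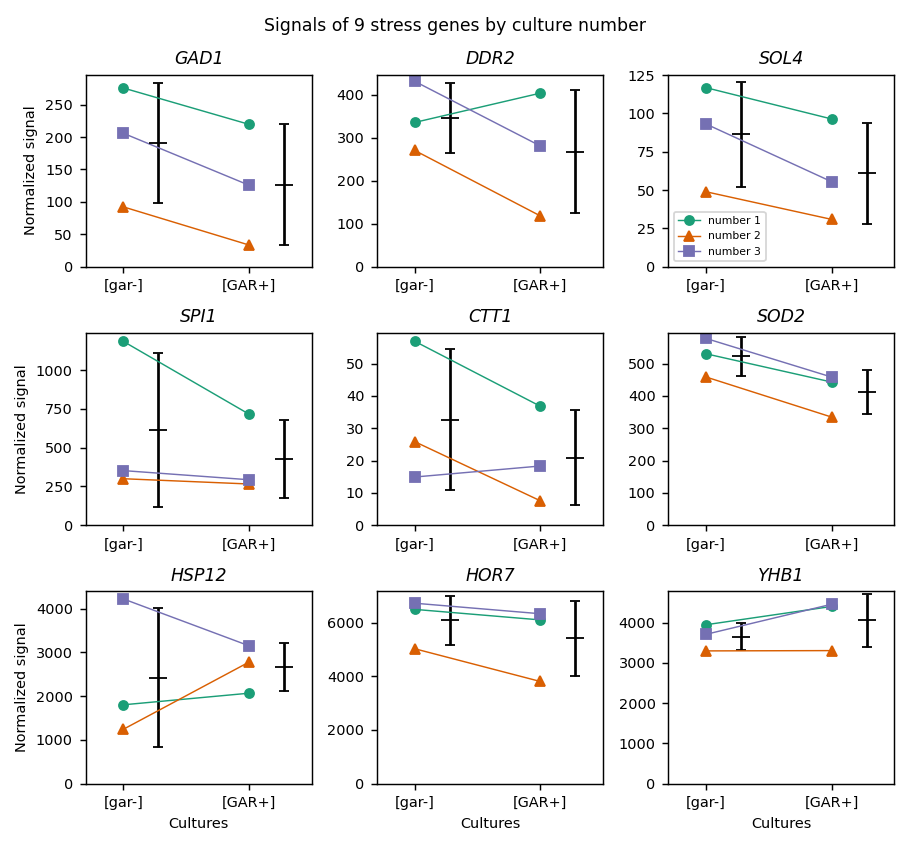
Normalized signals of 9 stress genes on a linear axis from 0, with lines joining [gar-] and [GAR+] cultures of the same number and black bars for the mean ± SD of 3 arrays. The line of number 2 lies lowest in both groups for GAD1, DDR2, SOL4, SPI1, SOD2, HOR7 and YHB1.

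Of 6 oxidant defence genes, 5 lay below 0, with a median of -0.23. SOD2, the manganese superoxide dismutase of mitochondria, gave 522 ± 60.1 (SD, n = 3) in [gar-] and 412 ± 67.5 (SD, n = 3) in [GAR+]. It read 531, 459 and 578 in [gar-] and 443, 335 and 458 in [GAR+], and the lowest [gar-] value, 459, was within 1 unit of the highest [GAR+] value, 458. The difference was -0.34 with a standard error of 0.18 and an unadjusted limma p of 0.0878. At the 3 numbers it was -0.25, -0.44 and -0.32, a narrower spread than for DDR2 or HSP12 but wider than for MSN4 or UGP1.

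CTT1 encodes catalase T of the cytosol, a standard target of Msn2 and Msn4. It was dim here, at 57.0, 25.9 and 14.9 in [gar-] and 36.8, 7.54 and 18.3 in [GAR+]. Its values in [GAR+] cultures 2 and 3 were not above the highest control of their arrays, 15.1 and 20.2. Culture 1 was the highest of either group, the groups overlapped, and the difference was -0.38 with a standard error of 0.35. PRX1, a mitochondrial peroxiredoxin, read 149, 156 and 261 in [gar-] and 178, 134 and 168 in [GAR+] and gave -0.18. GPX1, a glutathione peroxidase, gave -0.27 with readings of 114, 95.2 and 90.9 in [gar-] and 137, 55.1 and 65.1 in [GAR+]. Both were higher in [GAR+] at number 1 and lower at numbers 2 and 3. GTT1, a glutathione transferase, gave -0.095 and varied 1.42-fold over all arrays.

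YHB1, the flavohaemoglobin that detoxifies nitric oxide, was alone among the 32 genes in being higher in [GAR+] at every number. It read 3949, 3299 and 3711 in [gar-] and 4404, 3306 and 4459 in [GAR+], and the differences at numbers 1, 2 and 3 were 0.16, 0.0031 and 0.26. The value at number 2 is close to no difference. Of its 4 probe sets the one used gave 0.14, and the others gave 0.33, -0.032 and 0.25, the last at signals below 14. The probe set at -0.032 averaged 3562 in [gar-] and 3494 in [GAR+], against 3653 and 4056 for the one used. It was lower in [GAR+] at 2 of the 3 numbers. The YHB1 probe sets therefore did not share a sign, and being higher at every number held only for the one used.

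Among 9 genes of carbon and cofactor enzymes, 7 lay below 0, with a median of -0.16. GAD1, glutamate decarboxylase, had the largest difference on the list. It read 276, 92.3 and 206 in [gar-] cultures and 219.8, 33.4 and 126 in [GAR+] cultures. Both cultures numbered 2 were the lowest of their group, and the highest reading was 8.25 times the lowest. The difference was -0.70 with a standard error of 0.53 and a 95% confidence interval of -1.89 to 0.50, and without [GAR+] culture 2 it was -0.066. At numbers 1, 2 and 3 it was -0.31, -1.13 and -0.65. SOL4, a 6-phosphogluconolactonase of the pentose phosphate pathway, had the same order of cultures. Its signals were 117, 48.9 and 93.1 in [gar-] and 96.4, 30.8 and 55.4 in [GAR+], and at numbers 1, 2 and 3 they differed by -0.24, -0.47 and -0.61. For both genes each [GAR+] culture lay below the [gar-] culture of its number, although the groups overlapped.

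ALD2 and ALD3 encode cytosolic aldehyde dehydrogenases, are paralogues and lie next to each other in the genome. ALD2 read 31.1, 26.3 and 31.1 in [gar-] and 36.0, 13.3 and 32.9 in [GAR+]. ALD3 read 31.997, 30.0 and 22.9 in [gar-] and 26.9, 19.2 and 25.1 in [GAR+]. The lowest value of both was in [GAR+] culture 2, where ALD2 was below the highest control. Differences were -0.11 and -0.16, and since the genes are close in sequence, the split of the signal between them is uncertain. PGM2, the main phosphoglucomutase, gave -0.16 with readings of 94.7, 51.7 and 99.96 in [gar-] and 98.0, 41.8 and 78.3 in [GAR+]. UGP1, which makes UDP-glucose from the product of phosphoglucomutase, had the smallest range of the 32 genes, 1.27-fold, with 761, 768 and 887 in [gar-] and 711, 811 and 901 in [GAR+]. Its difference was 0.0012, with a 95% confidence interval of -0.34 to 0.34.

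PNC1, the nicotinamidase that feeds NAD+ salvage, read 1598, 944 and 2258 in [gar-] and 1554, 647 and 2166 in [GAR+]. Both cultures numbered 2 were far below the others of their group, and the group difference was -0.21 with a standard error of 0.42. GRE3, an aldose reductase, read 219.7, 141 and 225 in [gar-] and 194, 108 and 229 in [GAR+] and gave -0.16. PHM8, a phosphatase induced by phosphate starvation, was higher in [GAR+] at numbers 2 and 3. It read 924, 405 and 694 in [gar-] and 919, 599 and 842 in [GAR+], with a difference of 0.27 and a standard error of 0.28. At number 1 the difference of PHM8 was -0.0076.

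The 4 genes of protein turnover and the vacuole had a median of -0.050, and 3 lay below 0. TFS1, an inhibitor of carboxypeptidase Y, read 222, 115 and 367 in [gar-] and 251, 97.5 and 264 in [GAR+], and UBI4, the stress-induced polyubiquitin gene, read 639, 542 and 1156 in [gar-] and 864, 393 and 1073 in [GAR+]. In both the [GAR+] culture was higher at number 1 and lower at numbers 2 and 3, and the group differences were -0.17 and -0.042 with standard errors of 0.43 and 0.37. PAI3, an inhibitor of proteinase A, gave 0.14, and AMS1, the vacuolar alpha-mannosidase, -0.058. PAI3 and DDR48 are neighbouring genes, and their differences had opposite signs. OM45, of the outer mitochondrial membrane, and SYM1, of the inner one, gave -0.23 and -0.35. SYM1 read 101, 64.1 and 124 in [gar-] and 89.8, 39.3 and 91.9 in [GAR+], was lower in [GAR+] at each number, and its second probe set gave -0.21.

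The cultures were then compared within each number. At number 1, 19 of 32 genes were lower in [GAR+], against 49.6% of all probe sets, and the median difference of the 32 was -0.040. At number 2, 24 of 32 were lower, also against 49.6%, with a median of -0.28. At number 3 the count was 24 of 32 against 46.9%, with a median of -0.24. The pair of cultures numbered 1 therefore showed little of the shift seen in the other 2 pairs, and whether the pairs differ was not tested. The differences of all probe sets were spread wider at number 2, with 25th and 75th percentiles of -0.26 and 0.25. These percentiles were -0.15 and 0.16 at number 1 and -0.14 and 0.17 at number 3. Each number had the lower signal in [GAR+] for 11 genes, against 13.5% of all probe sets. These were MSN4, XBP1, HOR7, DDR48, SPI1, SOD2, SOL4, GAD1, PNC1, OM45 and SYM1.

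**Figure D3:**
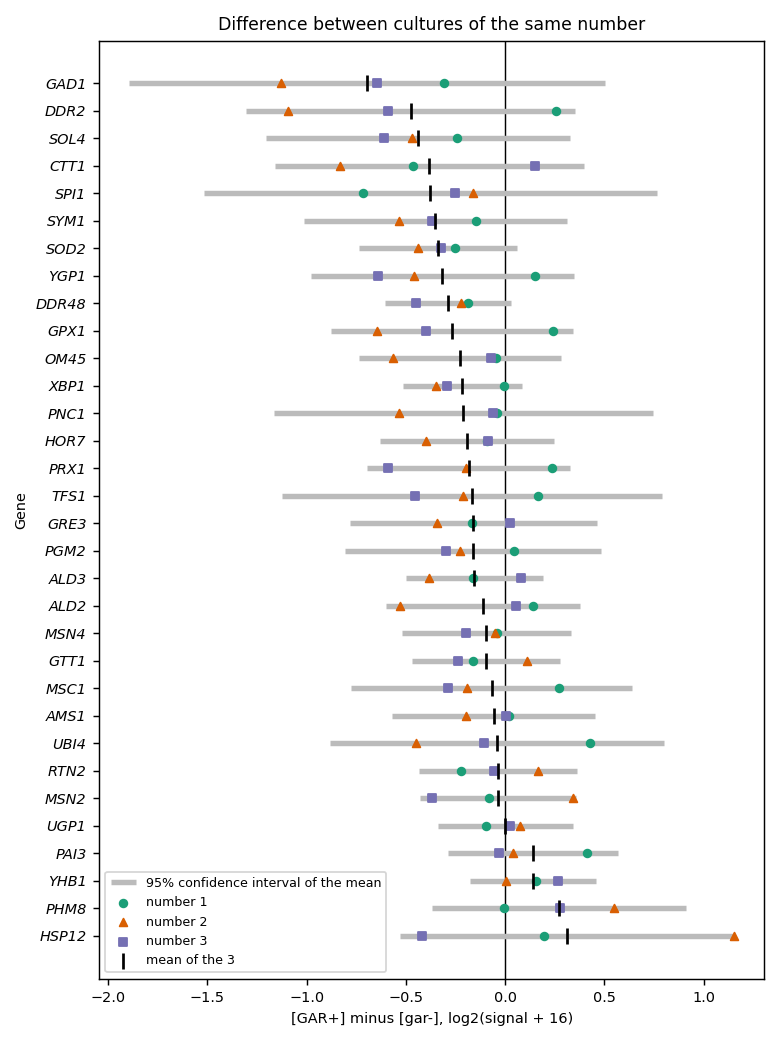
For each stress gene, symbols give the difference between the [GAR+] and [gar-] cultures of the same number, the tick their mean and the grey bar its 95% confidence interval from limma without the number in the model. Every grey bar crosses 0, and HSP12 has the widest range between numbers, from -0.42 to 1.15.

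With the culture number as a block in limma, again 0 of 32 genes passed and the smallest adjusted p among them was 0.735. At an unadjusted p under 0.05 the blocked fit found 6 of the 32, all lower in [GAR+], against 6.78% of all probe sets and 3.57% for the lower direction. The unadjusted p was 0.00495 for GAD1, 0.0179 for SOL4, 0.0215 for DDR48, 0.0272 for SOD2, 0.036 for SPI1 and 0.0461 for SYM1. In all 6 genes the [GAR+] culture was lower at 3 of 3 numbers. A fit blocked on number favours genes whose differences share a sign, so this adds no separate support. The median standard error of the 32 genes was 0.25 without the block and 0.15 with it, against 0.18 and 0.15 over all probe sets.

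**Figure D4:**
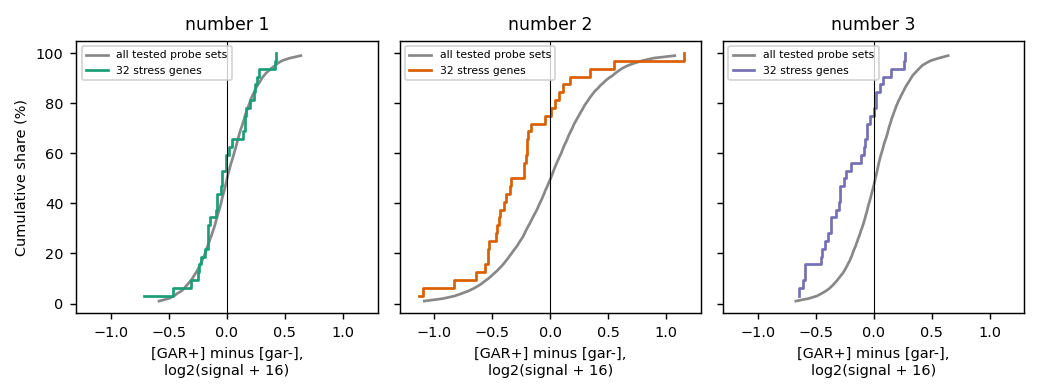
Cumulative share of the 32 stress genes (coloured steps) and of all tested probe sets (grey) by the difference between [GAR+] and [gar-] cultures of the same number, on the log2(signal + 16) scale. The steps follow the grey line at number 1, where 19 of 32 genes are below 0, and lie to its left at numbers 2 and 3, where 24 are.

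The spread between cultures of the same group was wide for these genes. The median standard deviation within groups was 0.38 on the log2(signal + 16) scale, against 0.21 over all probe sets and 0.22 over those with a mean signal of at least 50. It was above the median of all probe sets for 24 of the 32 genes. GAD1 at 0.97, SPI1 at 0.92 and PNC1 at 0.77 varied most. XBP1 at 0.10 and UGP1 at 0.15 were lowest, but XBP1 lay near background, where the added 16 shrinks any variation, and its highest signal was 1.71 times its lowest against 1.27 times for UGP1. The median was likewise 0.52 for heat shock chaperones, 0.38 for other stress-induced genes and 0.37 for trehalose and glycogen enzymes.

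Much of that spread ran along the culture number, with number 2 singled out after its values were seen. [gar-] culture 2 was the lowest of the [gar-] arrays for 23 genes, against 34.2% of all probe sets. [GAR+] culture 2 was the lowest of its group for 24, against 36.5%, and 19 genes had both, against 16.7%. Over all 6 arrays the lowest value was that of [GAR+] culture 2 for 21 genes, against 22.2% of all probe sets. The highest was that of [gar-] culture 3 for 13 and of [gar-] culture 1 for 10, against 12.5% and 12.9%. Low readings thus sat mainly in the cultures numbered 2, and high ones in [gar-] cultures 1 and 3.

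Averaged over both groups, number 2 lay below the mean of numbers 1 and 3 for 28 of the 32 genes, against 47.3% of all probe sets. The median of that difference was -0.52 for the stress genes and 0.020 for all probe sets, and within [gar-] and [GAR+] alone it was -0.41 and -0.65. It was largest for GAD1 at -1.56, PNC1 at -1.24 and TFS1 at -1.23. For 26 of 32 genes it exceeded the difference between the groups in size, against 64.5% of all probe sets. MSN4 at 0.39, XBP1 at 0.058, PAI3 at 0.011 and MSN2 at 0.00044 were the 4 that were not lower. The labels do not say what the cultures of a number share, and [GAR+] culture 2 also had the lowest deposited trimmed mean, whose part in these values was not tested.

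**Figure D5:**
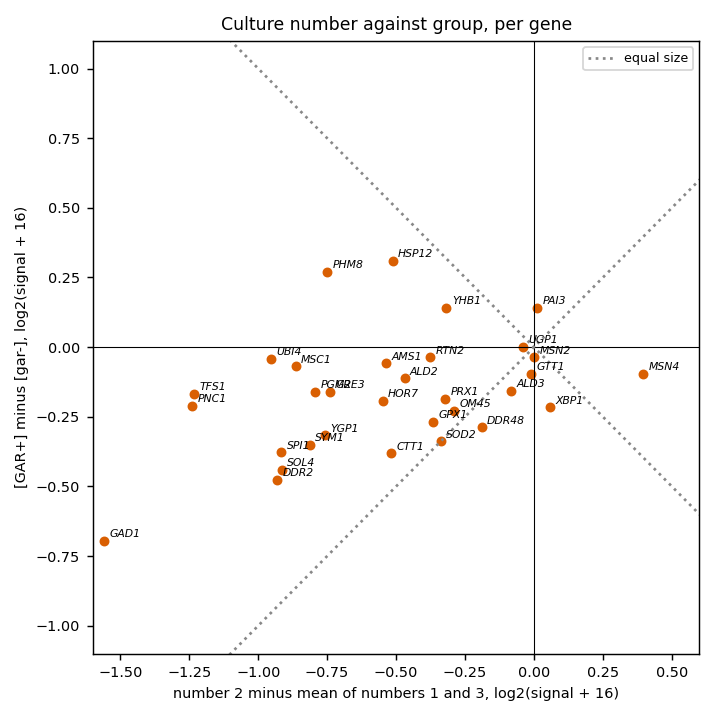
Each point is a stress gene, placed by the difference of culture number 2 from the mean of numbers 1 and 3 (x) and by [GAR+] minus [gar-] (y), both on the log2(signal + 16) scale. Left and right of the dotted cross, where 26 genes lie, the culture number makes the larger difference, and MSN4 is the one of these on the right. GAD1 is farthest to the lower left, at -1.56 and -0.70.

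The median of the 32 genes ranged more widely when 1 array was left out in turn, from -0.29 to -0.020, than when both arrays of a number were, from -0.25 to -0.12. Leaving out 1 array makes the culture numbers unequal between the groups, and the part of this in the wider range was not tested. Without [GAR+] culture 2 alone the median of the 32 genes was -0.020 and 18 lay below 0, and without [gar-] culture 3 alone these were -0.10 and 19. Without [gar-] culture 1 the median was -0.10, with 27 below 0, and without [gar-] culture 2 it was -0.29, with 29. Leaving out both arrays numbered 2 gave -0.12, with 26 of 32 below 0. Both numbered 1 left out gave -0.25 with 26, and both numbered 3 gave -0.17 with 25. The median thus stayed below 0 in each of these, and 0 genes passed in any.

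Genes around the pathway were read from lists. Of 20 measured genes for the upstream control of Msn2 and Msn4, 0 passed, 10 lay below 0, and the median was 0.0078. SNF1, the kinase active when glucose is short, read 217, 211 and 194 in [gar-] and 285, 242 and 274 in [GAR+]. The difference was 0.34. SNF1 was the 1 gene of the 20 whose groups did not overlap, against 8.86% of all probe sets. PDE2, the high-affinity cyclic AMP phosphodiesterase, gave 0.31, and YAK1, a kinase that acts against growth, -0.31. This list lacked the low readings of number 2, with 7 of 20 genes lower there.

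Of 14 genes of trehalose and glycogen enzymes, 0 passed and 9 lay below 0, with a median of -0.036. Heat shock chaperones had 0 of 22 passing, 11 below 0 and a median of -0.012. Another 28 stress-induced genes had 0 passing, 16 below 0 and a median of -0.067. Examples are GRE2, a reductase of methylglyoxal, at -0.52, RTC3 at -0.66 and HXK1, a hexokinase, at 0.66. HSP31 gave -0.51 and MDJ1 0.48, the lowest and highest of the chaperone list. Among trehalose and glycogen enzymes, the trehalase gene NTH2 was highest at 0.35 and GLC3 lowest at -0.27. Culture number 2 lay below the mean of numbers 1 and 3 for 12 of the 14, 22 of the 22 and 25 of the 28, so these lists shared the low readings of number 2 with the 32 genes. At an unadjusted p under 0.05 limma found 0 genes in each of these 4 lists without the block, against 2.98% of all probe sets. With the block it found 2 of 20, 1 of 14, 2 of 22 and 4 of 28 in the order given, against 6.78% of all probe sets, so the first 3 counts lie near that share. Whether their differences between groups depart from those of the 32 genes was not tested.

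Markers of other cell states were read beside these values. Of 8 genes of stationary phase, 6 lay below 0, with a median of -0.15 and 0 passing. Their summed signal was 428 to 539 in [gar-] and 339.98 to 425 in [GAR+], and 3 of the 8, SPG1, SPG4 and POT1, were no brighter than the highest control on 4 or more arrays. SPG5, the brightest of the 8, read 222, 201 and 326 in [gar-] and 227, 126 and 223 in [GAR+]. SNZ1, a vitamin B6 synthesis gene of stationary cells, read 78.3, 135 and 69.8 in [gar-] and 65.9, 67.2 and 59.9 in [GAR+], with a difference of -0.41. The summed signals of the groups thus lay apart narrowly, but without SPG5, left out after its values were seen, the other 7 summed to 205 to 326 in [gar-] and 198 to 214 in [GAR+] and overlapped. Their part in the stress gene values was not tested. Number 2 was lower for 4 of these 8. The 7 genes of mating type a summed to 5353 to 6785 in [gar-] and 6429.9 to 8524 in [GAR+], the 4 of mating type alpha to 103 to 116 and 108 to 138, and the 8 of meiosis to 154 to 200.45 and 143 to 184. These sums overlapped between the groups in each list. Gene by gene, groups did not overlap for 1 of 7, 0 of 4 and 2 of 8 genes, against 8.86% of all probe sets. They were AGA2 and SPO11, higher in [GAR+], and NDT80, lower, and 0 genes passed. Of the meiotic genes 3, SPO11 among them, and 0 of the others were no brighter than the highest control on any array. MF(ALPHA)1, MF(ALPHA)2 and STE3 of mating type alpha did not exceed it on 3, 3 and 4 arrays. ASG7 of mating type a did not on 5, and the meiotic genes IME2, SPS1 and DMC1 did not on 4 each.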

How the data were processed

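The authors deposited linear MAS5 signals, 1 for each probe set on an array, made with MAS5 and GCOS per the submitters' processing notes. For the scaling target, detection calls and genome build, the sources used here give nothing. Per the labels' protocols, poly(A) RNA was biotin-labelled as cRNA. Of 9335 probe sets, 6504 had exactly 1 gene in the platform annotation of 2016, 328 had several and 2503 were unnamed there. Names were checked by gene identifier in the R64 gene table, which matched all 6504, changed 0 symbols and served otherwise only for neighbouring genes.

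Signals were quantile-normalized over all 9335 probe sets and analysed as log2(signal + 16) in R 4.3.3 by limma 3.58.1 (lmFit and trended eBayes), comparing 3 [GAR+] with 3 [gar-] arrays, two-sided. The limma fit without the block was tried on simulated log2 signals whose noise was independent between arrays. Normalization, the block and the list summaries were not tried in this way. Precision is limited by the number of arrays. The members, lists and tests were chosen with earlier results of these data known. The list counts and medians are descriptions. Every member was accounted for, with array values for those of largest difference, non-overlapping groups or known pairing. Other lists were named by up to 3 genes, and RTC3, HXK1, MDJ1 and GLC3 were picked after their values were seen.

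Same-numbered arrays deviated together from their group means, with correlations of 0.322, 0.347 and 0.346 over the tested probe sets, against -0.311 to 0.0751 for other pairings. Deviations from a group mean cancel within the group, so positive same-number values push the other pairings down. The other pairings are therefore no independent contrast. The numbers come from the sample titles. That cultures of the same number belong together rests on these correlations only, as the labels do not say what they share. Sequences of the genes were not used here. FMP45 stood on both the stationary phase list and that of other stress-induced genes.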

Additional observations from a re-analysis of the deposited data

How the results depend on the processing

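In each of 18 alternatives 0 of the stress genes passed, and where the call over all probe sets was recounted it stayed at 1. Without normalization between arrays the median of the 32 genes was 0.013 and 15 lay below 0. There the median of all probe sets was 0.16, and 28 of the 32 lay below that median. With 1 array left out in turn, the median ranged from -0.29 to -0.020 and the count below 0 from 18 to 29. The median moved to -0.020 without [GAR+] culture 2, which leaves number 2 in [gar-] alone, and the cause was not tested. With pseudocounts of 4 and 64 it was -0.19 and -0.11, with arrays scaled to a common trimmed mean -0.14, with cyclic loess -0.15, and for the 27 genes of mean signal at least 50 it was -0.17. The replicate block left every difference unchanged by construction and changed no adjusted call. It moved the count at an unadjusted p under 0.05 from 0 to 6. Leaving out both arrays numbered 1 or 3 was added after the data were seen. Differences of 13 genes kept their sign in the alternatives run for them and those of 19 did not, with XBP1, RTN2, CTT1, ALD2 and ALD3 outside the setting of mean signal at least 50. Without normalization between arrays, the sign turned for MSN2 (0.12), MSN4 (0.068), RTN2 (0.097), MSC1 (0.14), PRX1 (0.0016), GTT1 (0.068), ALD2 (0.11), PGM2 (0.046), GRE3 (0.025), TFS1 (0.026), AMS1 (0.14) and UBI4 (0.12), all below the median of 0.16 over all probe sets. It turned without both arrays numbered 2 for HSP12 (-0.11), ALD2 (0.098), UGP1 (-0.036), AMS1 (0.012) and UBI4 (0.16), without both numbered 1 for RTN2 (0.055), without both numbered 3 for MSN2 (0.13), MSC1 (0.041), PRX1 (0.018) and UGP1 (-0.0093), and with cyclic loess for RTN2 (0.0019). With 1 array left out, differences ranged from -0.13 to 0.052 for MSN2, -0.24 to 0.025 for MSN4, -0.072 to 0.81 for HSP12, -0.32 to 0.043 for HOR7, -0.82 to 0.23 for SPI1, -0.21 to 0.084 for RTN2, -0.33 to 0.25 for MSC1, -0.32 to 0.055 for PRX1, -0.15 to 0.013 for GTT1, -0.26 to 0.15 for ALD2, -0.41 to 0.12 for PGM2, -0.079 to 0.088 for UGP1, -0.36 to 0.13 for GRE3, -0.58 to 0.28 for PNC1, -0.048 to 0.53 for PHM8, -0.57 to 0.26 for TFS1, -0.036 to 0.29 for PAI3, -0.22 to 0.16 for AMS1 and -0.33 to 0.38 for UBI4. For the 13 others, several of which came close to 0, the ranges were -0.28 to -0.16 for XBP1, -0.83 to -0.011 for DDR2, -0.42 to -0.21 for DDR48, -0.63 to -0.028 for YGP1, -0.68 to -0.041 for CTT1, -0.43 to -0.20 for SOD2, -0.60 to -0.051 for GPX1, 0.067 to 0.28 for YHB1, -0.25 to -0.071 for ALD3, -0.76 to -0.13 for SOL4, -1.19 to -0.066 for GAD1, -0.44 to -0.048 for OM45 and -0.58 to -0.034 for SYM1.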
